A study of Mus musculus with 21 samples.

Results

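Sorted intestinal Lgr5 cells of mice fed the NWD2 diet (3 samples) were compared with those of mice fed the NWD1 diet (3 samples), so 6 of the 21 sequenced samples enter the comparison. The labels do not say whether a sample is 1 mouse or a pool. The mice of these 6 samples were of the strain Lgr5EGFPcre-ERT2. In it the Lgr5 locus drives a green fluorescent protein and a tamoxifen-inducible Cre recombinase. These mice ate the purified diet from weaning until they were 3 months old, and each diet group held male, male and female samples as replicates 1, 2 and 3. The cells were the brightest few percent of fluorescent crypt cells, sorted in bulk, and no library comes from single cells. Every gene of the count table was taken except the spike-in RNAs. A further diet, AIN, the purified control of the study, is given beside some genes as 3 further libraries and entered the shared estimate of spread, but it is not compared here. The remaining libraries of the series also entered that estimate and are not compared. They are labelled as NWD1 with calcium, NWD1 with vitamin D, AIN with low vitamin D, and AIN with Vdr knockout.

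The receptor Lgr5 is carried by stem cells of the crypt base, which divide throughout life and give rise to absorptive enterocytes and to Paneth, goblet, enteroendocrine and tuft cells. In published use, NWD1 is a purified Western-style rodent diet that is high in fat and low in calcium, vitamin D and methyl donors, and NWD2 is the same diet with calcium and vitamin D raised. The sources used here name the diets without their makeup. The intestine takes up calcium across the cell through the apical channel TRPV6, carries it on the binding protein calbindin-D9k, encoded by S100g, and extrudes it through the pump PMCA1, encoded by Atp2b1. The vitamin D receptor, encoded by Vdr, is known to raise Trpv6 and S100g when dietary calcium is scarce. The study asks how diet alters the transcriptome of intestinal stem cells, and this pair of diets holds the Western-style base in common.

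NWD2 libraries held 56185935, 56472259 and 77784440 reads on genes, against 53366708, 43834240 and 30400725 in NWD1 libraries. Between 20577 and 21897 genes had a read in NWD2 libraries and between 17764 and 19789 in NWD1 libraries. Spike-in RNAs took 0.985%, 6.48% and 2.69% of reads in NWD2 and 24.7%, 20.4% and 5.24% in NWD1. The diet groups were not cleanly separated. On the first principal component of the 6 libraries, which held 47.1% of the variance, NWD2 lay at -0.127, 53.5 and 71.2 and NWD1 at -74.3, -86.8 and 36.5. NWD2 1 correlated with NWD1 3 at r = 0.976 in log2 CPM (read count scaled to library size), against 0.966 with NWD2 2 and 0.965 with NWD2 3. These library differences move with several gene groups below, and their part in the results was not tested. The median SD of log2 CPM across genes was 0.357 within NWD2 and 0.542 within NWD1. Crypt base, epithelial and enterocyte transcripts were all present in every library, and the purity of the sort was not measured. Lgr5 had 87.2, 48.4 and 36.7 CPM in NWD2 and 44.8, 59.9 and 81.7 CPM in NWD1. Vil1, a gene of the brush border of enterocytes, had 453, 1082 and 1593 CPM in NWD2 and 317, 482 and 792 CPM in NWD1. Olfm4, a crypt base stem cell gene, had 9334, 3618 and 2452 CPM in NWD2 and 5978, 8037 and 5495 CPM in NWD1, and Epcam, a marker of epithelium, had 483, 339 and 314 CPM in NWD2 and 684, 622 and 495 CPM in NWD1.

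The upstream sequences of the calcium genes Trpv6 and S100g and of 3 metal-handling genes that stood out in NWD1 are shown first. Only Trpv6 of these passed the adjusted threshold given below, and over the whole transcriptome more genes were higher than lower in NWD2. Each is the run of 250 bases that ends just before the gene's RefSeq start on build GRCm38.p6, printed 5′ to 3′ on the gene's own strand. Capitals mark the core of the metal response element, searched as TGCACNC and TGCGCNC on both strands. The windows lie at chr6:41636406-41636655 on the minus strand for Trpv6, chrX:162964600-162964849 on the minus strand for S100g, chr8:94178839-94179088 on the plus strand for Mt1, chr8:94172368-94172617 on the plus strand for Mt2 and chr1:185454598-185454847 on the plus strand for Slc30a10.
Trpv6: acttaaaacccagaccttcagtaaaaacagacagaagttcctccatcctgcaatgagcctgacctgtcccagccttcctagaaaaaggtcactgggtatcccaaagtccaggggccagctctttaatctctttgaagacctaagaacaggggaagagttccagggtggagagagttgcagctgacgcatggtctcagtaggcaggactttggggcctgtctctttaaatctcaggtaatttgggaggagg
S100g: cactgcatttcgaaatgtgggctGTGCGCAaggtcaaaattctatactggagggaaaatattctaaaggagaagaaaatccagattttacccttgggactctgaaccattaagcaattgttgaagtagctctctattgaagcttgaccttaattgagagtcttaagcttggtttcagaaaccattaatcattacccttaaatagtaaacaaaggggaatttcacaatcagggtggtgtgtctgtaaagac
Mt1: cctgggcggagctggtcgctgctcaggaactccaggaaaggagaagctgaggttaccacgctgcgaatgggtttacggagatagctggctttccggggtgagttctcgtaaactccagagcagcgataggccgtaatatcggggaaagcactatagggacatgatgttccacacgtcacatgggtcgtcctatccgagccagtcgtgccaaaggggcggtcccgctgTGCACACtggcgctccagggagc
Mt2: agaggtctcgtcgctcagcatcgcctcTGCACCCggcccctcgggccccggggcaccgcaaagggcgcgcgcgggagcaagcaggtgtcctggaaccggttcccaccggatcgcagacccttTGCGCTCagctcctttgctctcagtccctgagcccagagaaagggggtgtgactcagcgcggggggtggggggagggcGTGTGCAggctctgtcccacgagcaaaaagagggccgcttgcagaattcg
Slc30a10: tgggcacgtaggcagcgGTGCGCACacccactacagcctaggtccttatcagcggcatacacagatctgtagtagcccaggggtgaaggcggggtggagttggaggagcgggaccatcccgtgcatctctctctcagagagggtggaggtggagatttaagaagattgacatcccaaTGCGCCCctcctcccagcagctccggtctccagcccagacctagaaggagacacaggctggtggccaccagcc
The windows of Mt2 and Slc30a10 held 3 matches each, those of Mt1 and S100g 1 each, and that of Trpv6 had 0. A pair of the Slc30a10 matches overlapped on opposite strands, and Slc30a10 was the only printed window where this occurred. Of 32851 mouse promoter windows of the same length, 21.4% held a match and 5.17% held 2 or more. The vitamin D receptor element of type DR3 matched in 0 of the 5 windows and in 0.0396% of all windows. These are matches of letters, and no binding was measured. Bases further upstream or after the RefSeq start were not searched, so the counts hold for these windows and not for whole promoters.

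Trpv6 (ENSMUSG00000029868.7) separated the diets by a wide margin. It had 1, 1 and 1 reads in the NWD2 libraries, against 1071, 796 and 853 reads in the NWD1 libraries. Each NWD2 library held a single read of the gene, and the lowest NWD1 library had 796. In CPM the level was 0.0130, 0.0151 and 0.0113 in NWD2 and 15.9, 13.9 and 20.6 in NWD1. Trpv6 fell by 10.09 ± 1.25 on the log2 scale in NWD2 (SE, edgeR's quasi-likelihood test, Benjamini-Hochberg adjusted p = 0.00435), and it was lower in 3 of 3 NWD2 libraries than in any NWD1 library. It was the only gene of 16050 tested past an adjusted p of 0.05, which is 0.00623% of them. Pooled over the libraries, NWD2 had 3 reads and NWD1 2720, and NWD1 exceeded NWD2 by 1265-fold, with a 95% Poisson interval of 433 to 6139 that covers counting error only. AIN libraries had 2, 2 and 0 Trpv6 reads. Without NWD2 2 or without NWD2 3 the fold change was -10.13 ± 1.54 or -10.08 ± 1.57, and the adjusted p was then 0.0934 or 0.125.

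S100g, the calbindin that ferries calcium through the enterocyte, had 5.21, 37.4 and 45.5 CPM in NWD2 1, 2 and 3, against 574, 401 and 235 CPM in NWD1 1, 2 and 3. The lowest NWD1 library was above the highest NWD2 library, and NWD2 1 was far under the other NWD2 libraries. The fitted log2 fold change was -3.90 ± 0.95 (SE), with an adjusted p of 0.118 by edgeR, which misses the threshold. AIN libraries had 101, 106 and 43.2 CPM of S100g. The basolateral pump gene Atp2b1 had 52.2, 60.9 and 82.1 CPM in NWD2, against 75.2, 112 and 111 CPM in NWD1. Its groups overlapped, and the fold change of -0.62 ± 0.25 had an adjusted p of 0.35. Slc20a1, a sodium-phosphate cotransporter, was on the other side, with 6.91, 11.2 and 21.8 CPM in NWD2 and 5.0, 3.80 and 6.17 CPM in NWD1 (log2 fold change 1.42 ± 0.55, adjusted p = 0.337 by edgeR).

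Across the list of calcium and phosphate transport genes, 14 were tested, 1 was higher at an unadjusted p under 0.05 and 3 were lower, and the median log2 fold change was 0.10. Over all tested genes 7.40% were higher and 3.30% lower at that p, and the median was 0.00. By its median the list lay near the rest of the transcriptome, and its low members were Trpv6, S100g and Atp2b1. Trpv5, the kidney's counterpart of Trpv6, was too rare to be tested, with 0, 0 and 0 reads in NWD2 and 11, 24 and 4 reads in NWD1. Calb1, the larger calbindin, had 0, 0 and 0 reads in NWD2 and 0, 0 and 8 reads in NWD1.

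Levels of the vitamin D receptor overlapped between the diets. Vdr had 839, 674 and 829 CPM in NWD2, against 604, 1269 and 894 CPM in NWD1. NWD1 2 was the highest library, and the groups overlapped. The log2 fold change was -0.24 ± 0.35 (SE, adjusted p = 0.829 by edgeR). Cyp24a1, the enzyme that degrades active vitamin D and a classical target of the receptor, had 0, 0 and 1 reads in NWD2 and 0, 0 and 14 reads in NWD1. Cyp27b1, which activates vitamin D, had 2, 0 and 6 reads in NWD2 and 0, 0 and 10 reads in NWD1. Both were under the filter and were not tested, and NWD1 3 held the most reads of each.

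Of 14 tested genes of the receptor and of vitamin D metabolism, 4 were higher and 0 lower at an unadjusted p under 0.05, with a median log2 fold change of 0.15. All tested genes had 7.40% higher and 3.30% lower at that p. The higher genes of this list were Rxra, the receptor's heterodimer partner, and the oxidases Cyp3a11, Cyp3a13 and Cyp3a25, whose family also handles drugs and bile acids. Cyp3a13 had 46.7, 419 and 568 CPM in NWD2, against 29.0, 49.7 and 123 CPM in NWD1, so that NWD2 1 lay among the NWD1 libraries (2.39 ± 0.70, adjusted p = 0.171 by edgeR). Cyp3a11 ran from 6.70 to 262 CPM within NWD2 alone and from 11 to 30.5 CPM within NWD1.

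Metallothioneins, small cysteine-rich proteins that bind zinc and copper, stood apart in NWD1. Mt1 had 189, 121 and 216 CPM in NWD2, against 819, 612 and 672 CPM in NWD1. Mt2 had 12.1, 4.22 and 21.2 CPM in NWD2, against 151, 114 and 170 CPM in NWD1. All NWD2 libraries were under all NWD1 libraries for both genes. The log2 fold changes were -2.04 ± 0.47 for Mt1 and -3.68 ± 0.85 for Mt2, with an adjusted p of 0.113 each by edgeR, so neither passed. In AIN libraries Mt1 had 196, 176 and 169 CPM and Mt2 5.38, 13.1 and 6.95 CPM. Mt1 and Mt2 are close copies, and reads that map to both can be split or lost.

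Slc30a10, a manganese exporter of the zinc transporter family, had 0.493, 5.52 and 7.78 CPM in NWD2, against 40.5, 41.9 and 81.3 CPM in NWD1. The NWD1 libraries were all higher, with a log2 fold change of -3.60 ± 0.83 (SE, adjusted p = 0.113 by edgeR). Slc39a4, the apical zinc importer that is lost in acrodermatitis enteropathica, was the reverse case, with 142, 278 and 286 CPM in NWD2 and 89.7, 102 and 96.7 CPM in NWD1 and no overlap (1.29 ± 0.40, adjusted p = 0.196 by edgeR). Of the 25 metallothionein and zinc transport genes tested, 3 were higher and 7 lower at an unadjusted p under 0.05, and 4 were higher and 5 lower without overlap between the groups. Over all tested genes 7.40% were higher and 3.30% lower at that p, and 4.97% were higher and 3.76% lower without overlap. The metal list had a median fold change of -0.19. DESeq2, an alternative to edgeR, called 69 genes lower in NWD2, which is 0.431% of the 16020 genes it adjusted, and S100g, Mt1, Mt2, Slc30a10 and Trpv6 were among them.

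Of 13 iron handling genes, 1 was higher at an unadjusted p under 0.05 and 0 were lower. It was Slc11a2, the apical importer of ferrous iron, with 47.8, 70.3 and 93.8 CPM in NWD2 and 36.7, 23.7 and 45.7 CPM in NWD1 (1.00 ± 0.32, adjusted p = 0.214 by edgeR). The list's median was 0.36, and its counts lay near the shares over all tested genes, 7.40% higher and 3.30% lower.

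**Figure D1:**
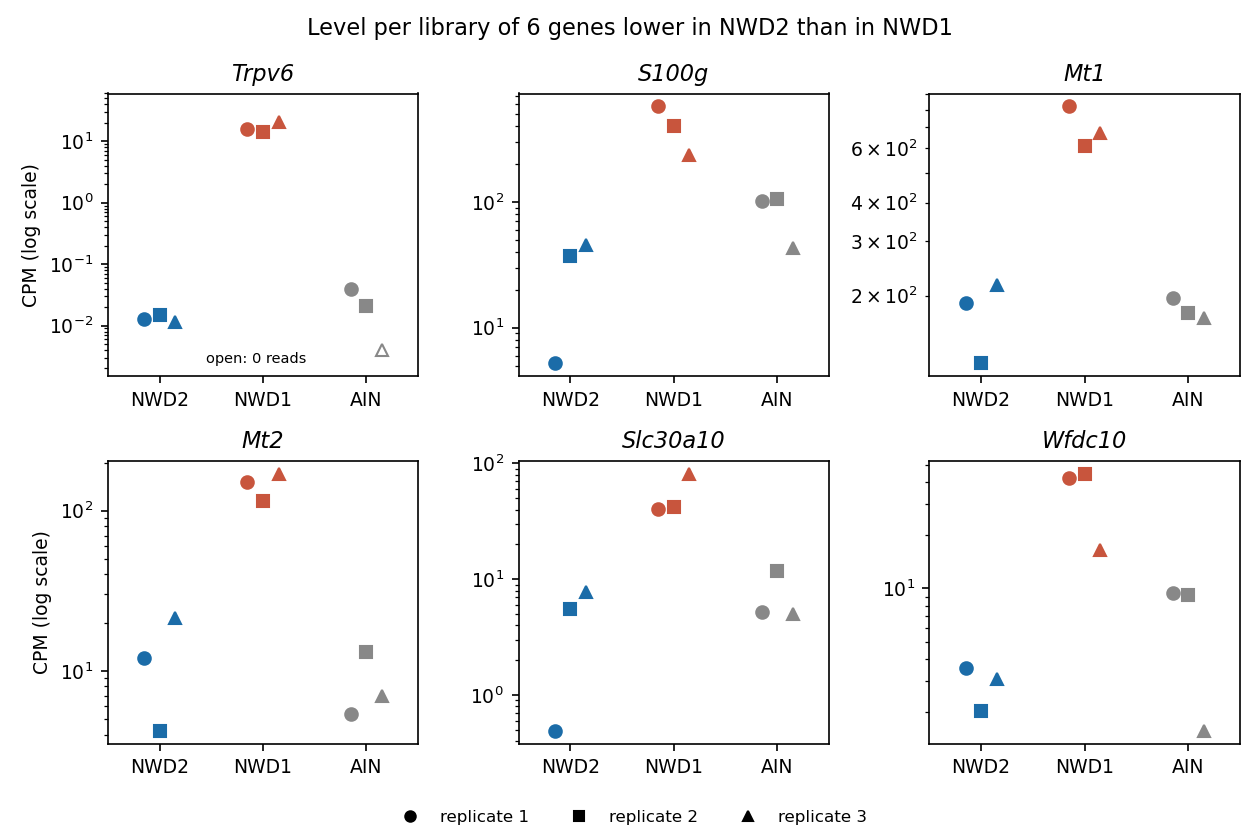
CPM on a log scale of 6 genes in each library of NWD2, NWD1 and AIN, with circles, squares and triangles for replicates 1, 2 and 3 and an open symbol for 0 reads. Each NWD2 point lies under each NWD1 point in all 6 panels, and only Trpv6 passed the adjusted threshold. All but Trpv6 are among the lowest named genes, which were picked for not overlapping, so their separation is no further result.

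Over the whole transcriptome, 1718 of 16050 genes (10.7%) had an unadjusted p under 0.05, with 1188 higher and 530 lower in NWD2. Among genes with that p, a mean of at least 2 log2 CPM and no overlap between groups, 12 with the highest and 12 with the lowest fold changes were picked. None of these genes passed the adjusted threshold, and their fold changes chose them. Trpv6 was not among them, since its mean was under 2 log2 CPM.

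The 12 highest were G6pc, Nat8, Aldh1a1, Ugt2b5, Cd36, Hsd3b3, Ces1f, Akr1c19, Rdh7, Aldh1a7, Sphk1 and Cidec, at log2 fold changes of 2.21 to 3.44. G6pc encodes the catalytic subunit that releases free glucose in gluconeogenesis, and it had 12.3, 105 and 51.8 CPM in NWD2, against 5.62, 4.78 and 5.14 CPM in NWD1. Cd36, a fatty acid and lipoprotein scavenger receptor, had 11, 49.0 and 79.4 CPM in NWD2, against 2.14, 6.41 and 6.53 CPM in NWD1 (3.13 ± 0.61, adjusted p = 0.0867 by edgeR). Cidec, a lipid droplet protein, had 8.19, 32.8 and 44.1 CPM in NWD2, against 5.63, 5.22 and 7.57 CPM in NWD1. In all 3 genes NWD2 1 was the lowest NWD2 library and lay closest to NWD1. Sphk1, which phosphorylates sphingosine, had 12.7, 30.9 and 38.7 CPM in NWD2, against 4.61, 4.17 and 8.51 CPM in NWD1 (2.26 ± 0.43, adjusted p = 0.0867 by edgeR). Hsd3b3, a steroid dehydrogenase, had 6.57, 25.4 and 29.1 CPM in NWD2 and 2.79, 1.80 and 3.93 CPM in NWD1.

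The lowest, of which 11 are reported here, were S100g, Mt2, Wfdc10, Slc30a10, Atoh8, Pla2g5, Lmo3, Mt1, Ccl20, Ddit4 and Bex1, at log2 fold changes of -3.90 to -1.77. Lmo3, a LIM-domain transcriptional cofactor, had 3.19, 2.71 and 1.02 CPM in NWD2, against 15.2, 11.7 and 3.79 CPM in NWD1 (-2.12 ± 0.41, adjusted p = 0.0867 by edgeR). Atoh8, a basic helix-loop-helix factor, had 3.86, 1.59 and 1.84 CPM in NWD2, against 10.7, 18.8 and 7.06 CPM in NWD1. Pla2g5, a secreted phospholipase, was tight in both groups, with 5.81, 6.84 and 4.34 CPM in NWD2 and 29.0, 23.3 and 28.6 CPM in NWD1 (-2.25 ± 0.52, adjusted p = 0.113 by edgeR). Here the spread within each diet was small against the distance between them. Ccl20, a chemokine of the epithelium over lymphoid follicles, had 1.67, 3.39 and 3.82 CPM in NWD2, against 7.81, 9.60 and 16.9 CPM in NWD1. Ddit4, a stress-induced inhibitor of the kinase mTORC1, had 11.2, 5.37 and 2.88 CPM in NWD2, against 21.8, 29.4 and 19 CPM in NWD1. Bex1, a small adaptor protein, had 1.93, 3.37 and 2.64 CPM in NWD2 and 9.44, 12.5 and 5.91 CPM in NWD1.

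**Figure D2:**
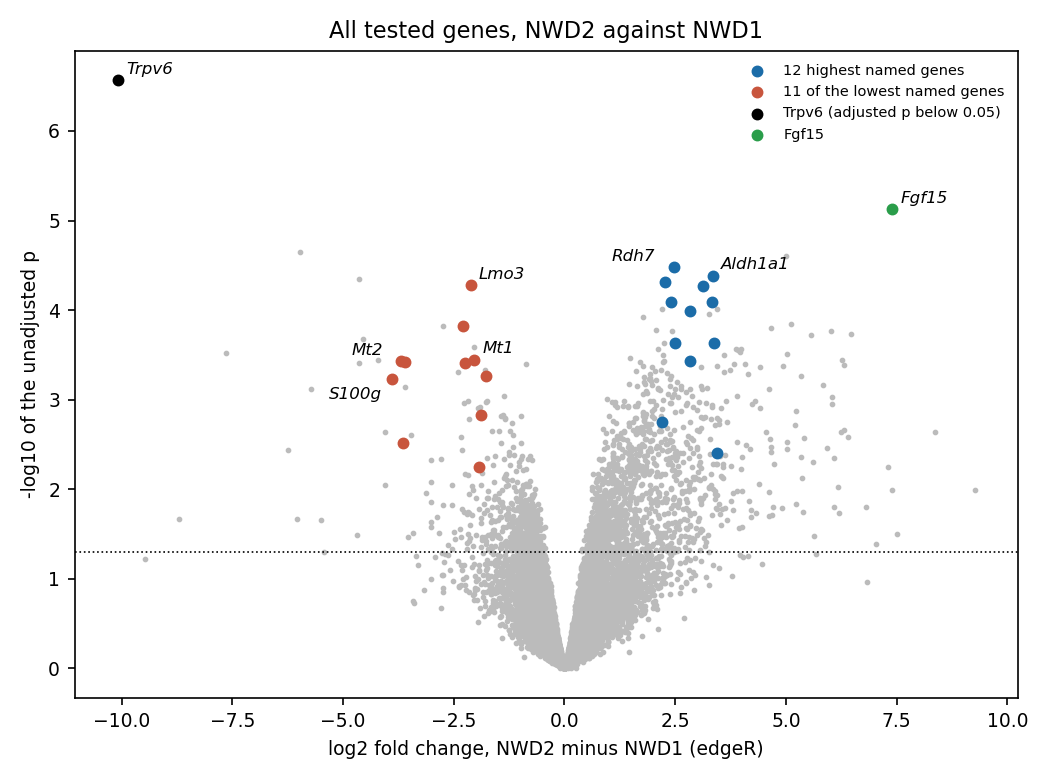
Each dot is 1 of 16050 tested genes, with its fitted log2 fold change, NWD2 minus NWD1, on the x axis and -log10 of its unadjusted edgeR p on the y axis, and the dotted line marks the naming threshold of 0.05. Trpv6 stands alone at upper left at -10.09, and 1188 higher genes against 530 lower ones lie above the line.

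**Figure D3:**
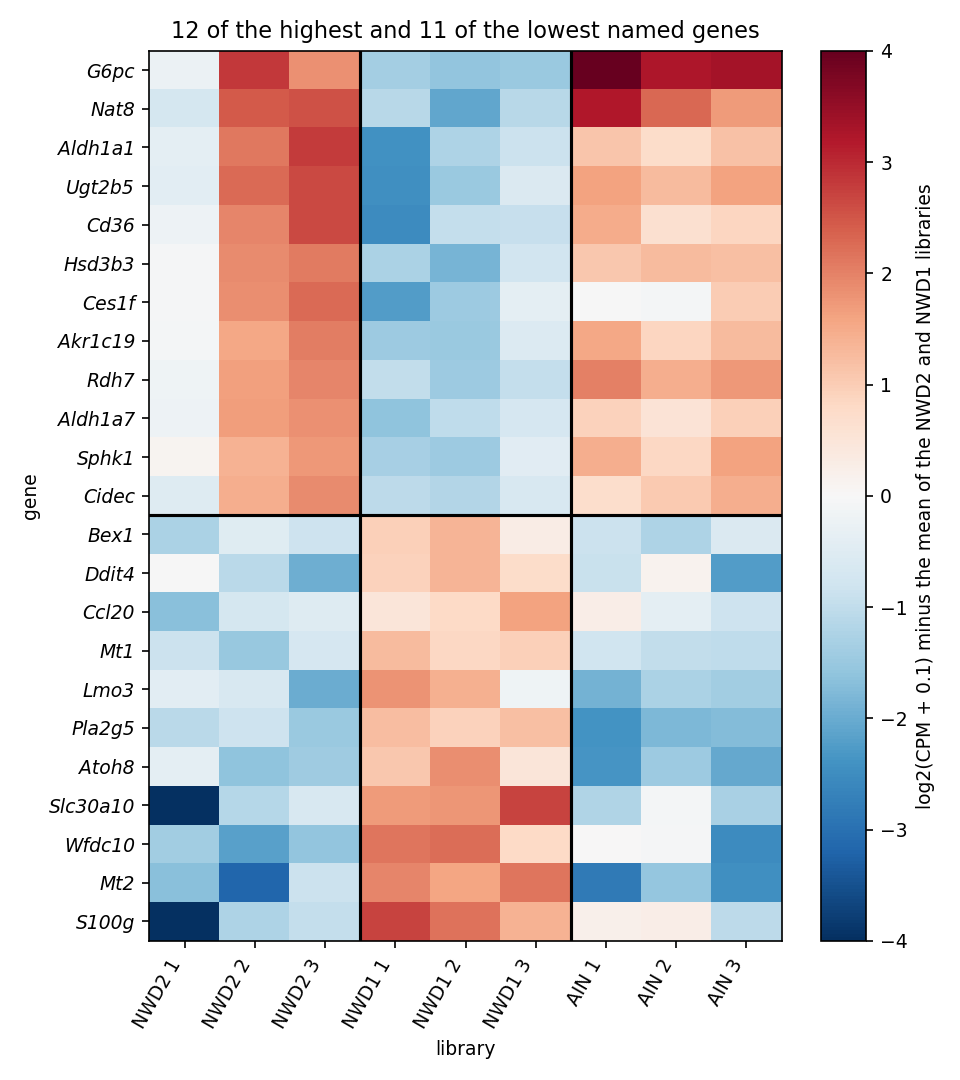
Log2(CPM + 0.1) of the 12 highest and 11 of the lowest named genes in each library, minus the gene's mean over the 6 NWD2 and NWD1 libraries, with colours that end at -4 and 4. In the upper block NWD2 1 is paler than NWD2 2 and NWD2 3, and the AIN libraries at right were not used to choose the genes.

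Genes of the absorptive enterocyte were mostly higher in NWD2, but this rested on NWD2 2 and NWD2 3. Enterocytes digest and absorb nutrients through a brush border of microvilli, and a bulk sort cannot tell more such cells from more RNA of these genes per cell. Of 20 brush border enzyme genes, 16 were higher and 0 lower at an unadjusted p under 0.05, against 7.40% and 3.30% of all tested genes, with a median log2 fold change of 2.17 against 0.00. None of the 20 passed the adjusted threshold, and none separated the groups without overlap. The median log2 CPM of the list was 4.56, 7.79 and 8.89 in NWD2 1, 2 and 3, against 4.04, 5.19 and 6.42 in NWD1 1, 2 and 3. NWD2 1 thus lay between NWD1 1 and NWD1 2. Sis, the sucrase-isomaltase that cleaves sucrose and starch fragments, had 243, 1546 and 2634 CPM in NWD2 and 105, 88.7 and 458 CPM in NWD1. Treh, which cleaves trehalose, had 8.92, 116 and 161 CPM in NWD2 and 7.84, 14.4 and 18.9 CPM in NWD1. Mep1b, a metalloprotease, had a log2 fold change of 2.21 ± 0.67 (adjusted p = 0.188 by edgeR).

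Structural genes of the brush border had 9 of 18 higher and 0 lower, with a median of 0.86. Myo1a, the myosin that ties the microvillus core to its membrane, had 313, 746 and 1262 CPM in NWD2 and 135, 217 and 530 CPM in NWD1. Krt20, a keratin of mature enterocytes, had 152, 681 and 990 CPM in NWD2 and 136, 143 and 386 CPM in NWD1. The scaffold gene Pdzk1 had 2.23, 33.2 and 53.7 CPM in NWD2 and 0.904, 4.73 and 7.18 CPM in NWD1. In each of the 3 genes NWD2 1 lay inside the NWD1 range.

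Nutrient transporters had 14 of 19 higher and 0 lower, with a median of 1.77. Slc6a20a, a proline carrier, had 26.1, 186 and 296 CPM in NWD2 and 12.5, 12.1 and 35.7 CPM in NWD1 (3.08 ± 0.72, adjusted p = 0.113 by edgeR). Slc46a1, the proton-coupled folate transporter, had 16.0, 130 and 169 CPM in NWD2 and 13.4, 13.7 and 25.8 CPM in NWD1 (2.54 ± 0.62, adjusted p = 0.121 by edgeR). The anion exchangers Slc26a6 and Slc26a3 had log2 fold changes of 2.38 ± 0.62 and 1.73 ± 0.48.

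Fat absorption genes had 18 of 24 higher and 0 lower, with a median of 1.81. Of the 24, 2 were higher without overlap, beside 4.97% of all tested genes. Cd36 was given above. Fabp1, which carries fatty acids in the cytosol, had 489, 3060 and 3152 CPM in NWD2 and 380, 527 and 472 CPM in NWD1. Mogat2, which rebuilds diacylglycerol, had 84.6, 485 and 686 CPM in NWD2 and 74.3, 66.7 and 170 CPM in NWD1. Pla2g12b, a catalytically inactive phospholipase homologue needed to load lipoproteins, was the other gene without overlap, with 22.2, 50.7 and 67.1 CPM in NWD2 and 14.9, 20.3 and 19.5 CPM in NWD1 (1.32 ± 0.35, adjusted p = 0.129 by edgeR).

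Fructose use and glucose release separated the groups more often, with 5 of 9 genes higher and without overlap, beside 4.97% of all genes. Khk, ketohexokinase, had 121, 417 and 442 CPM in NWD2 and 118, 89.2 and 112 CPM in NWD1, and Dak, the triokinase, 126, 388 and 450 CPM in NWD2 and 80.2, 84.0 and 111 CPM in NWD1. NWD2 1 was above NWD1 by a narrow margin in both genes. The list had a median of 1.28, with 5 higher and 1 lower at an unadjusted p under 0.05.

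Leaving out NWD2 1 raised the numbers called. Without it edgeR called 321 genes higher and 22 lower (1.97% and 0.135% of 16324 tested). These held 6 of 20 brush border enzymes, 8 of 19 transporters, 13 of 24 fat absorption genes and 3 of 9 fructose genes, all higher. Without NWD1 3 edgeR called 268 genes higher and 51 lower of 16533 tested. These held 2 of 20 brush border enzymes, 3 of 19 transporters, 1 of 24 fat absorption genes and 0 of 9 fructose genes, all higher. Without NWD2 2 or without NWD2 3 edgeR called 0 genes, with 1056 and 954 at an unadjusted p under 0.05. DESeq2 on all libraries called 275 genes higher (1.72%) and 69 lower, with 5 of 20, 5 of 19, 8 of 24 and 4 of 9 of these lists among the higher ones.

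**Figure D4:**
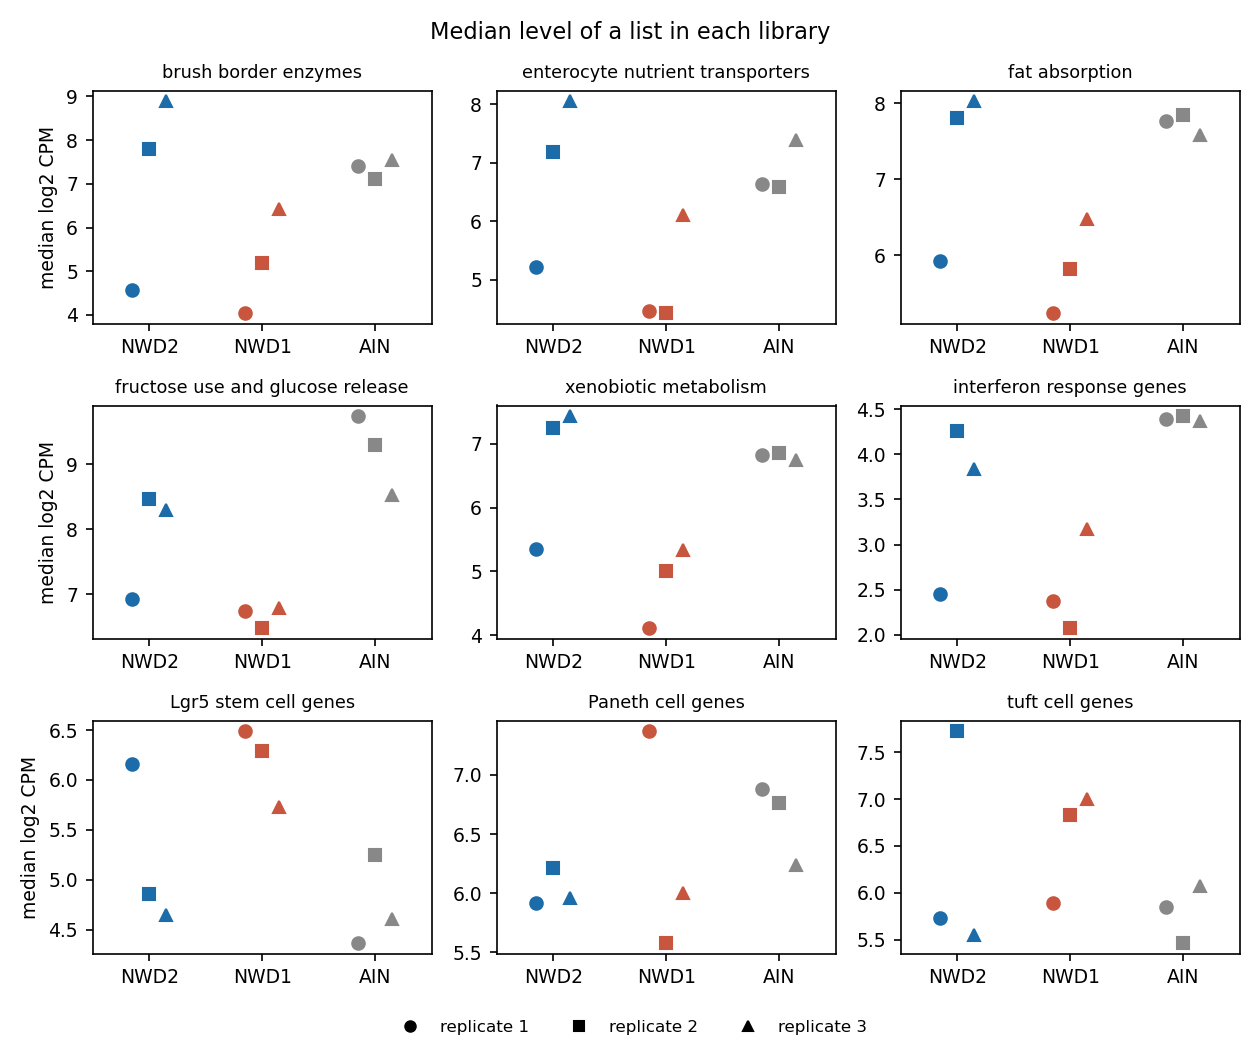
Median log2 CPM of 9 gene lists in each library of NWD2, NWD1 and AIN, with circles, squares and triangles for replicates 1, 2 and 3. In the enterocyte panels NWD2 2 and NWD2 3 lie above all NWD1 libraries while NWD2 1 lies beside them, and for Lgr5 stem cell genes NWD2 1 lies with NWD1.

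Drug and toxin metabolism had the most higher genes by count among the 44 lists, with 26 of 34 higher and 0 lower at an unadjusted p under 0.05. Without overlap 10 were higher, and the median was 1.71. All tested genes had 7.40% higher and 3.30% lower at that p, and 4.97% higher without overlap. Brush border enzymes had a larger share at that p, 16 of 20, and a larger median, 2.17. The list's median log2 CPM was 5.36, 7.25 and 7.43 in NWD2 and 4.11, 5.01 and 5.33 in NWD1, so even NWD2 1 was just above the highest NWD1 library. Nat8, an N-acetyltransferase of the mercapturate pathway, had 5.21, 47.8 and 51.3 CPM in NWD2 and 3.94, 1.96 and 3.95 CPM in NWD1 (3.38 ± 0.74, adjusted p = 0.113 by edgeR). Nr1i3, the nuclear receptor CAR that senses foreign compounds, had 5.42, 21.4 and 34.7 CPM in NWD2 and 2.77, 3.80 and 6.22 CPM in NWD1 (2.25 ± 0.52, adjusted p = 0.113 by edgeR). Its NWD2 1 value lay under NWD1 3. Ces2c, a carboxylesterase, had 34.3, 179 and 187 CPM in NWD2 and 14.8, 26.5 and 48.9 CPM in NWD1. Ugt2b5, a glucuronosyltransferase, had 10.2, 65.9 and 86.0 CPM in NWD2 and 2.43, 4.84 and 9.02 CPM in NWD1. The carboxylesterase Ces1f had 42.7, 162 and 215 CPM in NWD2 and 9.28, 16.1 and 34.2 CPM in NWD1, and Akr1c19, an aldo-keto reductase, 62.4, 190 and 269 CPM in NWD2 and 23.9, 23.4 and 44.8 CPM in NWD1. Carboxylesterases and glucuronosyltransferases form families of close copies, so their single members are uncertain. DESeq2 called 15 of the 34 genes higher, edgeR without NWD2 1 called 14 and edgeR without NWD1 3 called 4.

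Vitamin A handling overlapped with that list in its dehydrogenases. Aldh1a1, which makes retinoic acid from retinal, had 46.7, 263 and 429 CPM in NWD2 and 11.5, 25.9 and 33.9 CPM in NWD1 (3.34 ± 0.63, adjusted p = 0.0867 by edgeR). Rdh7, a retinol dehydrogenase, had 74.0, 262 and 323 CPM in NWD2 and 41.8, 30.3 and 43.1 CPM in NWD1 (2.47 ± 0.46, adjusted p = 0.0867 by edgeR). In both genes all NWD2 libraries were above all NWD1 libraries. Isx, a transcription factor that represses uptake and cleavage of carotenoids, had 132, 160 and 234 CPM in NWD2 and 67.2, 50.5 and 114 CPM in NWD1, also without overlap. Rbp2, the retinol carrier of the enterocyte, had 167, 1125 and 1409 CPM in NWD2 and 208, 176 and 236 CPM in NWD1, with NWD2 1 under every NWD1 library. Aldh1a7, a close relative of Aldh1a1, had 8.83, 33.0 and 36.3 CPM in NWD2 and 3.26, 5.01 and 6.41 CPM in NWD1. Of 16 retinoid genes tested, 5 were higher and 0 lower at an unadjusted p under 0.05 and 6 were higher without overlap, with a median of 0.64. The shares of all tested genes were 7.40% higher and 3.30% lower at that p, and 4.97% higher without overlap.

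Fgf15, the ileal hormone that tells the liver to stop making bile acids, had 0.363, 1.54 and 2.69 CPM in NWD2, against 0, 0 and 0.0241 CPM in NWD1. These are 368 reads over the NWD2 libraries and 1 read over the NWD1 libraries, and the ratio of NWD2 to NWD1 was 264, with a 95% Poisson interval of 47.0 to 10443 for counting error only. The edgeR adjusted p was 0.0597, the lowest after Trpv6. AIN libraries had 9.51, 2.59 and 0.858 CPM. Fgf15 was the only one of 10 bile acid genes with an unadjusted p under 0.05, beside 10.7% of all tested genes in either direction. The list's median was 0.59. Fgf15 is known as a product of the distal small intestine, and the labels give the tissue as intestine.

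Antioxidant genes had 7 of 30 higher and 0 lower at an unadjusted p under 0.05, beside 7.40% and 3.30% of all tested genes. The list's median was 0.30. Nqo1, a quinone reductase and target of NRF2, had 38.7, 67.8 and 79.1 CPM in NWD2 and 17.2, 20.5 and 28.5 CPM in NWD1, without overlap (1.49 ± 0.34, adjusted p = 0.113 by edgeR). Nfe2l2, which encodes NRF2, had 249, 369 and 392 CPM in NWD2 and 177, 204 and 203 CPM in NWD1 (0.79 ± 0.27, adjusted p = 0.266 by edgeR). Gsta1, a glutathione transferase with close copies, had 6.66, 101 and 78.8 CPM in NWD2 and 5.46, 9.46 and 12.6 CPM in NWD1.

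Stem cell genes ran the other way from enterocyte genes. All 29 tested Lgr5 stem cell genes had a log2 fold change under 0, at -1.38 to -0.03, with a median of -0.72. At an unadjusted p under 0.05, 13 were lower and 0 higher, and 5 were lower without overlap, but none passed the adjusted threshold. Over all tested genes 3.30% were lower at that p and 3.76% were lower without overlap. Lgr5 itself had 87.2, 48.4 and 36.7 CPM in NWD2, against 44.8, 59.9 and 81.7 CPM in NWD1. The groups overlapped fully, and its fold change of -0.19 ± 0.49 (adjusted p = 0.907 by edgeR) turned to 0.29 without NWD1 3. Rgmb, a coreceptor for bone morphogenetic proteins, had 56.1, 27.2 and 27.2 CPM in NWD2 and 116, 91.7 and 53.0 CPM in NWD1. Sox9, a transcription factor of crypt progenitors and tuft cells, had 84.5, 66.7 and 32.8 CPM in NWD2, against 144, 134 and 110 CPM in NWD1, without overlap (-1.08 ± 0.37, adjusted p = 0.25 by edgeR). Tnfrsf19, known as Troy, had 23, 12.8 and 9.26 CPM in NWD2 and 29.8, 38.5 and 36.1 CPM in NWD1, also without overlap. Msi1, an RNA-binding protein, had 1.19, 1.26 and 0.848 CPM in NWD2 and 4.26, 2.72 and 1.59 CPM in NWD1. Ascl2, the master factor of crypt base cells, had 49.5, 20.4 and 13.4 CPM in NWD2 and 94.1, 62.6 and 31.5 CPM in NWD1, with NWD2 1 above NWD1 3. Median log2 CPM over the list was 6.16, 4.86 and 4.65 in NWD2 and 6.49, 6.29 and 5.73 in NWD1. Without NWD2 1 the list's median fold change was -1.04, and without NWD2 2 it was -0.55.

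Reserve stem and regeneration genes had 1 of 13 higher and 1 lower, with a median of -0.10. These counts, at an unadjusted p under 0.05, stand beside 7.40% and 3.30% of all tested genes. Krt7, a keratin, was almost constant within NWD2, at 229, 232 and 229 CPM, against 446, 350 and 383 CPM in NWD1 (-0.77 ± 0.24, adjusted p = 0.196 by edgeR). Il33, an alarmin, had 0.933, 8.85 and 25.8 CPM in NWD2 and 0.489, 0.701 and 4.36 CPM in NWD1.

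Wnt signalling maintains the crypt base, and 4 of 23 of its genes were lower and 0 higher, with a median of -0.37. The shares over all tested genes were 3.30% lower and 7.40% higher. Sp5, a Wnt target, had 3.37, 1.44 and 1.71 CPM in NWD2 and 7.61, 4.48 and 3.71 CPM in NWD1, and Bcl9l, a coactivator of beta-catenin, 5.77, 5.63 and 4.89 CPM in NWD2 and 13.5, 7.85 and 7.06 CPM in NWD1. Neither gene overlapped between the diets. Tcf7, a transcription factor of the pathway, had 4.67, 1.44 and 1.87 CPM in NWD2 and 9.65, 5.24 and 2.68 CPM in NWD1. Notch signalling sets absorptive against secretory fate, and 2 of its 21 genes were lower and 1 higher, with a median of -0.39 that was 0.016 without NWD1 1. Its target Hes1 had 24.7, 17.1 and 18.6 CPM in NWD2 and 89.0, 60.9 and 16.4 CPM in NWD1, so NWD1 3 was the lowest of the 6 libraries. Hes6 had 82.8, 58.5 and 46.2 CPM in NWD2 and 170, 95.9 and 74.9 CPM in NWD1, and Numb, an inhibitor of Notch, 71.4, 100.2 and 135 CPM in NWD2 and 30.6, 71.1 and 79.2 CPM in NWD1. Of 15 BMP pathway genes 2 were lower and 0 higher (median -0.11), and of 16 EGF receptor pathway genes 1 was lower and 0 higher (median 0.18).

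Secretory lineages had few genes at a low p. For all tested genes the shares were 7.40% higher and 3.30% lower at an unadjusted p under 0.05, and 3.76% lower without overlap. Paneth cells, which make antimicrobial proteins beside the stem cells, had a list median of -0.92, the lowest of the 44, with 2 of 21 genes lower and 1 higher at an unadjusted p under 0.05 and 6 lower without overlap. Median log2 CPM of the list was 5.92, 6.21 and 5.96 in NWD2 and 7.37, 5.58 and 6.0 in NWD1, so NWD1 1 alone was high. Without NWD1 1 the median fold change was -0.42. Pla2g2a, a secreted phospholipase, had 9.99, 13.9 and 7.77 CPM in NWD2 and 66.5, 17.2 and 22.8 CPM in NWD1. Reg3a, a lectin of a family with close copies, lay on the other side, with 31.8, 198 and 260 CPM in NWD2 against 26.1, 24.3 and 32.2 CPM in NWD1 (2.49 ± 0.62, adjusted p = 0.121 by edgeR), and NWD2 1 lay just under NWD1 3.

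Goblet cells secrete mucus, and 3 of their 21 genes were lower and 0 higher, with a median of -0.43 that was -0.076 without NWD1 1 and -0.21 without NWD2 1. Retnlb, a goblet cell defence protein, had 0.207, 0.272 and 0.0679 CPM in NWD2 and 0.652, 0.543 and 1.54 CPM in NWD1, and Galnt12, a mucin glycosylating enzyme, 30.8, 26.9 and 26.7 CPM in NWD2 and 64.8, 43.3 and 51.2 CPM in NWD1. Both were without overlap. Creb3l1, a factor for secretory capacity, had 17.7, 29.8 and 25.0 CPM in NWD2 and 60.9, 26.8 and 35.3 CPM in NWD1.

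Enteroendocrine cells release gut hormones, and 2 of their 30 genes were higher and 0 lower, beside 7.40% and 3.30% of all tested genes. The list's median was 0.36, and it was -0.09 without NWD1 2. Somatostatin (Sst) had 86.8, 160 and 149 CPM in NWD2 and 45.8, 34.8 and 107 CPM in NWD1, and the incretin Gip 414, 799 and 498 CPM in NWD2 and 225, 57.0 and 523 CPM in NWD1. Both overlapped between the diets. Tuft cell genes, markers of chemosensory cells, had 1 of 22 lower and a median of 0.12. NWD2 2 alone was high in that list, at a median of 7.73 log2 CPM, where NWD2 1 had 5.73, NWD2 3 had 5.55 and NWD1 had 5.89, 6.83 and 7.00. Without NWD2 2 the tuft median was -0.92.

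Interferon response genes, the antiviral programme downstream of interferon receptors, had 19 of 45 members higher and 0 lower at an unadjusted p under 0.05, with a median of 1.01. None was without overlap, and all tested genes had 7.40% higher and 3.30% lower at that p. The list's median log2 CPM was 2.45, 4.25 and 3.84 in NWD2 and 2.37, 2.07 and 3.18 in NWD1, again with NWD2 1 inside the NWD1 range. Ifit3, which binds viral RNA complexes, had 0.609, 4.10 and 5.96 CPM in NWD2 and 0.178, 0 and 0.699 CPM in NWD1. Ifi44 had 0.985, 4.25 and 5.41 CPM in NWD2 and 0.208, 0 and 1.45 CPM in NWD1. Ddx60, a helicase of antiviral sensing, had 3.80, 18.5 and 23.1 CPM in NWD2 and 2.94, 0.701 and 7.30 CPM in NWD1 (2.19 ± 0.65, adjusted p = 0.177 by edgeR). On the log2(TPM + 1) scale the list's median was 0.58, and without NWD2 2 it was 0.40.

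MHC class I presentation had 5 of 22 entries higher and 0 lower, with a median of 0.40. At an unadjusted p under 0.05 the shares of all tested genes were 7.40% higher and 3.30% lower. The peptide transporter genes Tap1 and Tap2 had 20.1, 33.8 and 52.7 CPM and 11.7, 22.6 and 40.5 CPM in NWD2, against 13.6, 10.7 and 23.3 CPM and 9.25, 9.16 and 16.3 CPM in NWD1. Their fold changes were 1.16 ± 0.32 and 1.07 ± 0.35 (adjusted p = 0.151 and 0.222 by edgeR). MHC class II presentation had 0 of 12 entries at an unadjusted p under 0.05 in either direction, and a median of -0.04. H2-Q2 in the class I list and Ciita in the class II list stood under separate gene identifiers, and each identifier was counted. Epithelial antimicrobial and cytokine genes had 6 of 22 higher and 2 lower, with a median of -0.03 that was 1.09 without NWD1 3 and -0.41 without NWD1 2. Reg1, a regenerating-family lectin, had 231, 3267 and 2930 CPM in NWD2 and 265, 282 and 746 CPM in NWD1, with NWD2 1 the lowest of the 6 libraries. Il22ra1, a subunit of the interleukin 22 receptor, had 5.11, 7.02 and 10.2 CPM in NWD2 and 0.697, 1.73 and 5.09 CPM in NWD1, narrowly without overlap.

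Leukocyte and stroma markers each summed to less than Epcam in every library, which had 314 to 684 CPM. Of 25 leukocyte markers 19 passed the filter, and their summed level was 23.9, 89.2 and 34.0 CPM in NWD2 and 16.1, 28.0 and 52.0 CPM in NWD1. The pan-leukocyte gene Ptprc had 8.74, 56.0 and 11.4 CPM in NWD2 and 5.41, 14.0 and 28.6 CPM in NWD1, so NWD2 2 was the highest and the groups overlapped. In NWD2 2 Ptprc was above Lgr5, which had 48.4 CPM there. The tuft cell list was also highest in NWD2 2, and which cells the Ptprc reads came from was not tested. T cell receptor subunit gene Cd3g had 13, 18 and 8 reads in NWD2 and 0, 0 and 0 reads in NWD1, and against a floor of 3 reads over the NWD1 group it was at least 9.32-fold higher in NWD2. Cd7, a marker of T and natural killer cells, had 6, 59 and 26 reads in NWD2 and 0, 1 and 0 reads in NWD1. Cd3e did not follow them, with 21, 8 and 7 reads in NWD2 and 0, 39 and 1 reads in NWD1. The list's median fold change was 0.63, also with Cd3g at its bound, and it was -0.37 without NWD2 2. Of 20 stroma and endothelium markers 8 passed the filter, with summed levels of 20.2 to 21.4 CPM in NWD2 and 7.34 to 27.7 CPM in NWD1. Col1a1, the collagen of fibroblasts, had 0, 7 and 2 reads in NWD2 and 1, 0 and 0 reads in NWD1. The part of leukocyte transcripts in the interferon and MHC values was not tested.

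Few cell division genes had a low p, beside 7.40% of all tested genes higher and 3.30% lower at an unadjusted p under 0.05. Of 35 genes of DNA replication and S phase 0 had an unadjusted p under 0.05, and of 34 genes of G2 and mitosis 1 was lower, with medians of -0.19 and -0.22. Of 75 nuclear respiratory chain genes 0 had an unadjusted p under 0.05, and their median was -0.11, which was 0.25 without NWD1 1 and -0.40 without NWD1 3. Of 13 mitochondrially encoded genes 1 was higher, with a list median of -0.27 that was -0.70 without NWD2 3 and -0.72 without NWD1 3. Among 21 regulators of mitochondrial biogenesis 1 was higher and 1 lower, at a median of 0.00. Ppargc1a, the coactivator PGC-1alpha, had 22.9, 57.5 and 105 CPM in NWD2 and 6.92, 30.4 and 31.9 CPM in NWD1, with NWD2 1 under NWD1 2 and NWD1 3 (1.37 ± 0.53, adjusted p = 0.332 by edgeR). Esrrg, an orphan nuclear receptor that works with it, had 51.8, 27.2 and 27.5 CPM in NWD2 and 43.1, 77.7 and 83.7 CPM in NWD1. Of 27 TCA cycle genes 2 were higher and 0 lower, at a median of 0.14.

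Glycolysis had 4 of 28 genes higher and 1 lower, with a median of 0.30, and 4 were higher and 1 lower without overlap. The shares over all tested genes were 7.40% and 3.30% at an unadjusted p under 0.05, and 4.97% and 3.76% without overlap. Pkm2, pyruvate kinase, had 552, 1103 and 1256 CPM in NWD2 and 359, 449 and 561 CPM in NWD1, and NWD2 1 lay just under NWD1 3. Hk2, the hexokinase that traps glucose, was the lower gene, with 19.1, 17.4 and 21 CPM in NWD2 and 58.9, 34.0 and 40.0 CPM in NWD1, without overlap (-1.24 ± 0.39, adjusted p = 0.21 by edgeR). Fatty acid oxidation and PPAR targets had 10 of 34 higher and 2 lower, with a median of 0.38. Acot12, a thioesterase, had 0.972, 5.78 and 8.19 CPM in NWD2 and 0.0593, 0 and 0.771 CPM in NWD1, and Ehhadh, an enzyme of peroxisomal oxidation, 122, 228 and 292 CPM in NWD2 and 69.3, 94.5 and 122 CPM in NWD1. Cholesterol and fatty acid synthesis had 3 of 34 higher and 1 lower, with a median of -0.02. One-carbon and methyl metabolism had 2 of 26 higher and 1 lower, with a median of -0.02. Phgdh, the entry enzyme of serine synthesis, was the lower gene, with 68.2, 30.6 and 20.3 CPM in NWD2 and 131, 108 and 57.0 CPM in NWD1.

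Among 21 intestinal transcription factors 2 were higher and 1 lower, with a median of -0.12. Isx was given above. Hnf4g, an enterocyte factor, had 234, 493 and 826 CPM in NWD2 and 69.2, 188 and 300.4 CPM in NWD1, and the lower gene was Sox4, at 2.53, 1.1 and 0.656 CPM in NWD2 and 6.63, 3.92 and 2.87 CPM in NWD1. Claudins and junction genes had 2 of 22 higher and 0 lower, beside 7.40% and 3.30% of all tested genes, with a median of 0.36. Chromatin regulators had 0 of 34 higher and 4 lower, with a median of -0.11, and Chd7, a chromatin remodeller, had 29.1, 21.6 and 28.6 CPM in NWD2 and 38.1, 40.6 and 36.8 CPM in NWD1, without overlap. Unfolded protein response genes had 1 of 25 higher, with a median of 0.10. Immediate early and dissociation stress genes had 1 of 24 lower, with a median of -0.42 that was -0.053 without NWD1 1 and 0.095 without NWD1 3. When 1 library at a time was left out, the medians of 17 of the 44 lists changed sign at least once, and these medians lay between -0.42 and 0.63.

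**Figure D5:**
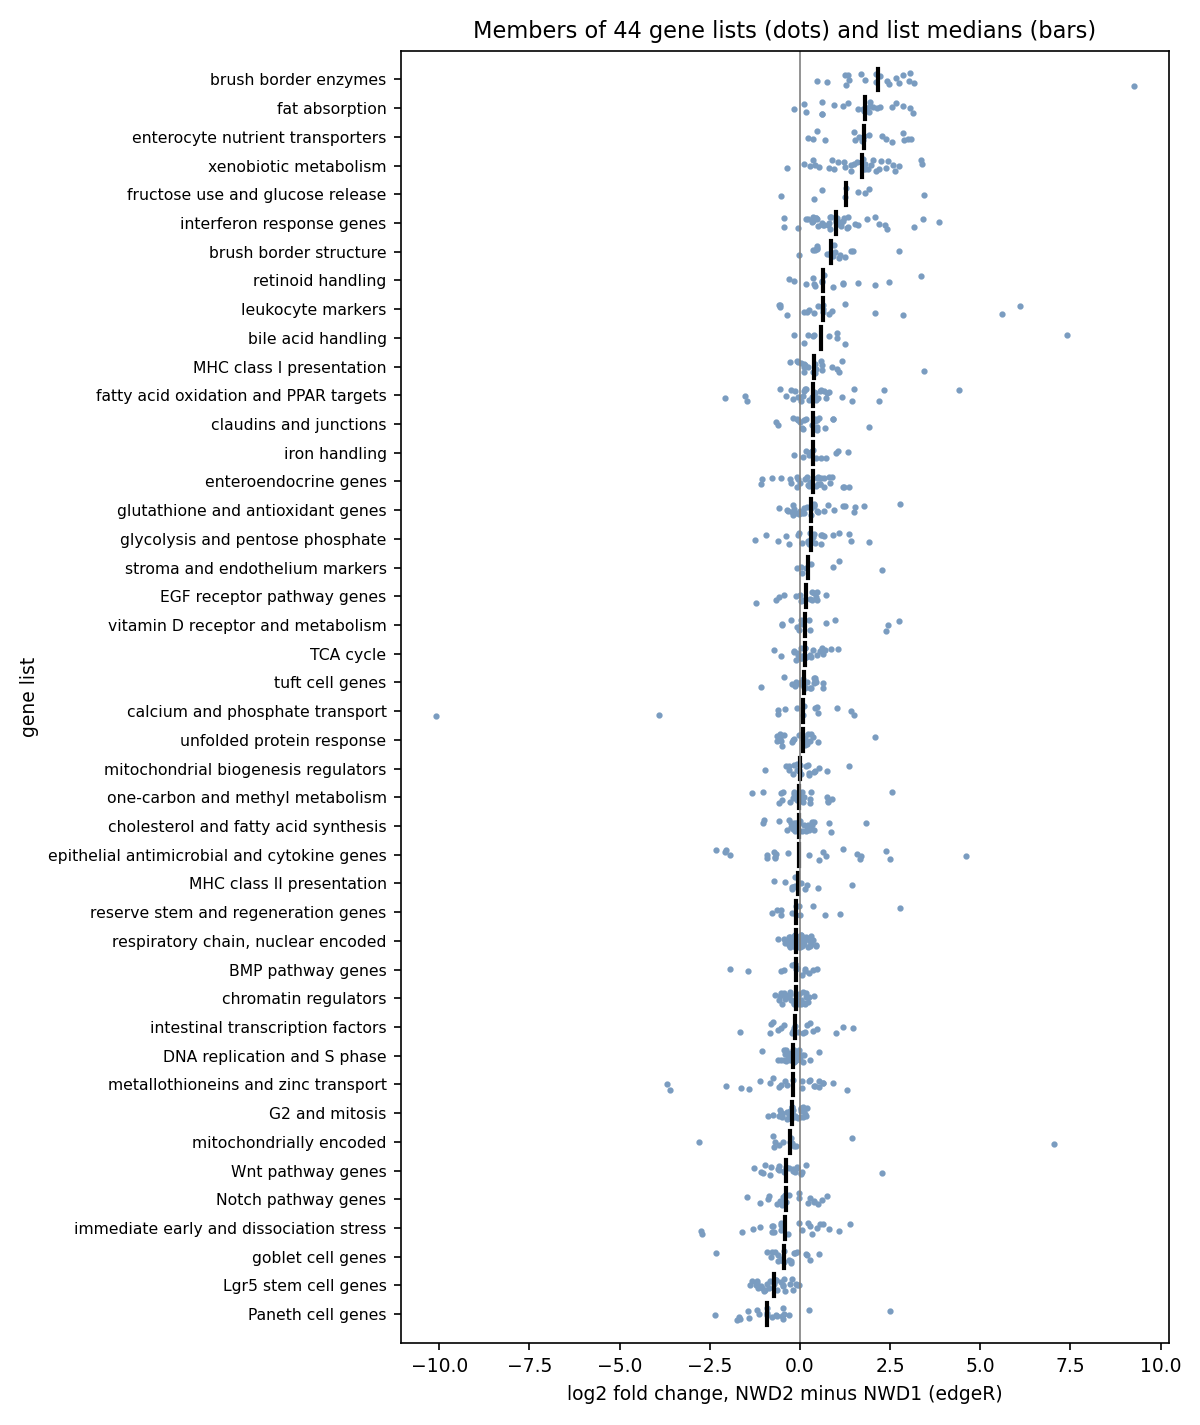
Fitted log2 fold change, NWD2 minus NWD1, of each tested member of 44 gene lists (dots), with the list's median as a black bar and lists ordered by median. Medians run from -0.92 for Paneth cell genes to 2.17 for brush border enzymes, and Trpv6 is the dot at -10.09 in calcium and phosphate transport.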

How the data were processed

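RNA of sorted Lgr5 cells was made into cDNA with SMART-Seq v4 and into paired-end libraries with Nextera XT, per the labels' protocols. These kits do not mark strand, so a gene and its antisense partner cannot be told apart. The authors deposited a table of raw read counts (37310 genes and 92 ERCC spike-in RNAs) and a table of TPM values. STAR 2.4.2a, HTSeq 0.6.1, edgeR and build mm9 are named in the submitters' processing notes, which give no roles or settings.

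Counts on genes were tested with edgeR 4.0.16 in R 4.3.3 (robust quasi-likelihood F test, two-sided, TMM scaling), in a single model of all 21 libraries with 7 group means and sex, since 3 libraries a group give little information on spread. The filterByExpr function kept 16050 genes, p-values were adjusted by Benjamini-Hochberg over them, and 0.05 was the threshold. CPM used TMM-scaled library sizes, and log2 CPM a prior count of 2. The error (SE) given with a fold change was derived from edgeR's test. It is the size of the log2 fold change divided by the square root of its F statistic. DESeq2 1.42.0 and limma 3.58.1 on log2(TPM + 1), and other settings, served as alternatives. The scripts were tested on simulated data.

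Named genes are those past the threshold, the 12 highest and 12 lowest by the rule in the text (predicted genes, Rik clones, Xist and Y-linked genes left out), up to 4 members of each of 44 lists with the smallest unadjusted p under 0.05 (the smallest 2 where there was none), of which some are not reported here, and genes of prior interest. Ascl2, Olfm4, Epcam, Ptprc, Cd3e, Col1a1, Trpv5, Calb1, Cyp27b1 and Fgf15's ratio were added after their values were seen. Comparison, lists and tests were chosen with earlier results of these data known. Lists are described by counts and medians, with no set test. The labels do not say whether a library is 1 mouse or a pool, so p-values measure only the spread between these samples, which may be technical. No pair of replicates repeated a library, with a chi-square per degree of freedom of 226 or more. Whether replicate numbers pair the groups is not settled. Deviations of same-numbered libraries correlated at 0.160, -0.0302 and 0.311, and those of different-numbered libraries at -0.290 to 0.151. Replicate 3 was the female sample in both groups, and the fit reported has no replicate block.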

Additional observations from a re-analysis of the deposited data

How the results depend on the processing

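The number of genes past the threshold, 1 in the fit reported, depended on the processing, and the cause was not tested. It was 842 with no filter on low counts, 344 with DESeq2, 26 with limma on log2(TPM + 1), 30 with a pseudocount of 0.1, 56 with limma and no filter on low values, 2 with the 6 libraries of NWD2 and NWD1 alone (Trpv6 and Wfdc16), and 0 with NWD1 3 as the lone NWD1 library (627 at an unadjusted p under 0.05), where that library is assumed to vary like the other groups. Leaving out 1 library at a time gave 0 to 343 genes, with 343 without NWD2 1, 319 without NWD1 3, 1 without NWD1 1 or NWD1 2, and 0 without NWD2 2 or NWD2 3. The fold change of Trpv6 was negative under all 18 settings. It ran from -10.29 to -9.60 when 1 library was left out, was -11.02 with NWD1 3 alone (adjusted p = 0.22 by edgeR) and -10.27 without AIN 1, AIN 2 and NWD1 1 (adjusted p = 0.116 by edgeR), a setting chosen after seeing the data in which 1 gene was called. On the log2(TPM + 1) scale it was -4.03, since a pseudocount shrinks differences of low genes. With the replicate number as a block 1 gene was called, Trpv6 at -10.18 ± 1.14 (adjusted p = 0.00293 by edgeR), and the block changed no other call. Of the other 150 genes tried, signs turned for Lgr5 (-0.55 to 0.29 when 1 library was left out), Vdr (-0.48 to 0.062) and Lyz2 (-0.37 to 2.85), and with NWD1 3 alone for Hes1 (0.68), Gsk3b (0.18), Ung (0.29) and Ube2c (0.028). Of 792 list medians under these settings, 33 moved by more than 1 SD between libraries. Depth limits Trpv5, Cyp24a1, Calb1 and Cyp27b1, whose reads were too few to test, and the fold changes of genes with at most 3 reads in 1 diet, such as Trpv6, Fgf15, Cd7, Cd3g and Ces2f.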

Other observations

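Some neighbours of low genes on the chromosome were also low in NWD2, and these genes were chosen after their values were seen. Only the loci of Wfdc10, Trpv6, Slc30a10, Mt1 and Mt2 were looked at for this. Gene order is that of RefSeq on GRCm38.p6. The Wfdc genes encode small secreted proteins with a whey acidic protein domain, a fold known from protease inhibitors. Wfdc16 had 16, 11 and 9 reads in NWD2, against 768, 889 and 184 reads in NWD1 (-5.97 ± 1.08, adjusted p = 0.0867 by edgeR), and 28, 103 and 6 reads in AIN. Wfdc9 had 15, 15 and 20 reads in NWD2, against 240, 342 and 96 reads in NWD1 (-4.21 ± 0.97, adjusted p = 0.113 by edgeR). Its neighbour Wfdc10 had 273, 134 and 272 reads in NWD2, against 2842, 2538 and 683 reads in NWD1, and Wfdc13 had 5, 0 and 2 reads in NWD2, against 42, 55 and 33 reads in NWD1. All 4 genes were lower without overlap, beside 3.76% of all tested genes. NWD1 3 was the lowest NWD1 library in CPM in each but Wfdc13, where NWD1 1 was. Of the rare genes at the locus that were not tested, Wfdc8 had 0, 4 and 2 reads in NWD2 and 19, 0 and 3 in NWD1. Spinlw1 had 0, 0 and 0 reads in NWD2 and 7, 9 and 3 in NWD1, and Wfdc11 had 1 read, in NWD1 1. Wfdc9 and Wfdc10 overlap on opposite strands, and the libraries do not mark strand, so their reads cannot be told apart. Next to Slc30a10, the clone 9630028B13Rik had 4, 21 and 37 reads in NWD2, against 357, 373 and 297 reads in NWD1 (-4.65 ± 0.89, adjusted p = 0.0867 by edgeR). Between them lies 1 tested gene, Gm2061, whose values are not given here.

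Higher genes also lay beside each other, at loci likewise chosen after their values were seen. The carboxylesterases Ces2a, Ces2b, Ces2c, Ces2e and Ces2g had log2 fold changes of 1.80, 2.42, 2.19, 1.96 and 1.3, each with an unadjusted p under 0.05 by edgeR and with overlap between the diets. Ces2f was rare, with 10, 9 and 47 reads in NWD2 and 0, 0 and 2 reads in NWD1. The apolipoprotein genes Apoa1, Apoc3 and Apoa4, which serve chylomicrons, had 2.68, 2.87 and 3.04, with adjusted p of 0.157 to 0.214 by edgeR, and all 3 overlapped between the diets. Apoa1 had 254, 2855 and 3179 CPM in NWD2, against 269, 266 and 437 CPM in NWD1, so NWD2 1 was under every NWD1 library. Apoa5 had 11, 23 and 83 reads in NWD2 and 0, 0 and 7 reads in NWD1. Carboxylesterases are close copies and share reads, and genes at a locus are not independent of each other.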
